A study of Mus musculus with 6 samples.

Results

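Netrins and their receptors were examined as a family of 10 genes in RNA-seq libraries of mouse aorta. The genes were the ligands *Ntn1*, *Ntn3*, *Ntn4* and *Ntng1*, the receptors *Dcc* and *Neo1*, and the UNC5 receptors *Unc5a*, *Unc5b*, *Unc5c* and *Unc5d*. They were picked by symbol from the 55341 genes of the deposited count table, and 8 of the 10 were among the 16017 genes that passed the filter on low counts. The family was taken up after *Unc5d* had been seen to differ between the genotypes of these same libraries. The genotype values of its members are therefore a description and carry no test.

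The libraries came from aortic vessels of 3 miRNA-26b-/- mice (M2626, M2627 and M2628, replicates 1 to 3) and 3 miRNA-26b+/+ mice (M2629, M2630 and M2631, replicates 1 to 3), 1 library per mouse, and asked which transcripts differ when miRNA-26b is missing. The mice were 8 weeks old and ate chow, and their labelled strain was C57BL/6NCrl. In the knockout, a stretch of an intron of *Ctdsp1* that encodes miRNA-26b was flanked by loxP sites in embryonic stem cells of a 129-derived line and removed with a tamoxifen-inducible Cre, which was bred out afterwards. The deletion takes away both strands of the miRNA and is not restricted to a cell type of the vessel, the line was founded on a mixed 129 and C57BL/6 background, and the controls carried the intact locus. None of the 10 genes lies on chromosome 1, where the deletion is. Whether 129-derived sequence remained there or on other chromosomes was not tested.

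Netrins are laminin-like proteins that steer growing axons and vessels. Netrin-1 attracts cells that carry DCC or its relative neogenin, and repels cells that carry an UNC5 receptor, alone or together with DCC. In vessels the UNC5B receptor of endothelial cells restrains sprouting, and UNC5 and DCC receptors are also known as dependence receptors, which promote cell death when no netrin is bound.

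MicroRNAs bind mostly through their seed, bases 2 to 8 counted from the 5′ end. The mature sequences are shown here because both strands were deleted and because relatives with the same seed remain in the genome; the seed is in capitals.
mmu-miR-26b-5p: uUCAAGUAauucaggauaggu
mmu-miR-26a-5p: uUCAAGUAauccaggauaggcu
mmu-miR-26b-3p: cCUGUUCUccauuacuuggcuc
mmu-miR-26a-2-3p: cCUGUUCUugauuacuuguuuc
mmu-miR-26a-1-3p: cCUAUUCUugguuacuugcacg
The sequences are those of RefSeq on GRCm38.p6, where miR-26b-5p lies at chr1:74394324-74394344 and miR-26b-3p at chr1:74394360-74394381, both on the plus strand. The 5p strands of miR-26b and miR-26a share 1 seed. The 3p strand of miR-26b shares its seed with the 3p strand from *Mir26a-2* but not with that from *Mir26a-1*.

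The longest annotated 3′ UTR of each gene (GENCODE M21, GRCm38) was searched on its sense strand for letters complementary to these seeds. An 8mer (TACTTGAA for 5p, AGAACAGA for 3p) pairs with bases 2 to 8 and ends in A, a 7mer-m8 (TACTTGA for 5p, AGAACAG for 3p) lacks the A, a 7mer-A1 (ACTTGAA for 5p, GAACAGA for 3p) lacks the match to base 8, and a 6mer (ACTTGA for 5p, GAACAG for 3p) lacks both, so the shorter motifs lie within the longer ones. At least a 6mer was found in 5 of the 10 genes for the 5p strand and in 6 for the 3p strand. Over all 20998 genes searched, the 6mer was present in 31.6% for the 5p strand and in 30.2% for the 3p strand. The share depended on the length of the 3′ UTR. Among genes of like length it ran from 28.3% (*Unc5a*) to 85.3% (*Unc5c*) for the 5p strand. For the 3p strand it ran from 28.65% to 84.1% for the same members. Nothing is therefore read from the number of members with a match. The sites below are the longest matches in *Unc5d*, the gene that stood apart in these libraries, and in *Ntn1* and *Ntn4*, the most abundant ligands, with the match in capitals.
*Unc5d* 5p 7mer-A1, chr8:28649918-28649944, minus strand: cttagctcacACTTGAAcatgcaatga
*Unc5d* 5p 7mer-A1, chr8:28648696-28648722, minus strand: ttgggccaagACTTGAAtggccaccgt
*Unc5d* 3p 8mer, chr8:28647561-28647588, minus strand: agaaaagctgAGAACAGAagcccccaac
*Unc5d* 3p 8mer, chr8:28647425-28647452, minus strand: caccacatgaAGAACAGAatttctgttc
*Ntn1* 5p 7mer-A1, chr11:68209871-68209897, minus strand: gggtctcaacACTTGAAggactccatc
*Ntn1* 3p 8mer, chr11:68212726-68212753, minus strand: cgctccttccAGAACAGAgatgcgcttc
*Ntn4* 5p 8mer, chr10:93747015-93747042, plus strand: gtttctactgTACTTGAActtacaaacc

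The 3′ UTR of *Unc5d* was long, with 6051 bases, and held 3 matches to the 5p seed and 6 to the 3p seed, counting 6mers. Among 633 genes whose 3′ UTR was within 20% of that length, 61.3% held a 7mer or 8mer for the 5p strand and 65.2% for the 3p strand, so a match of this kind was common at such a length. At least 2 copies of the 3p 8mer, as in *Unc5d*, were found in 3.16% of them. That number of copies was taken from *Unc5d* itself, so nothing is read from this share. For *Ntn1*, with a single 3p 8mer, 12.8% of the 1813 genes of like length held that motif. *Ntn4* had a short 3′ UTR of 1354 bases with a single 5p 8mer, a motif present in 4.19% of all 20998 genes searched and in 3.88% of the 2812 genes of like length. *Neo1* held only 6mers for the 5p strand, *Unc5b* and *Ntng1* a 6mer each for the 3p strand, and *Unc5c* a 7mer-A1 and 2 6mers for the 3p strand. *Dcc* held 7mers for both strands, which are not printed. The letters searched were not present in the windows of *Unc5a* and *Ntn3*. Such matches describe the sequence, and no binding was measured.

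**Figure D1:**
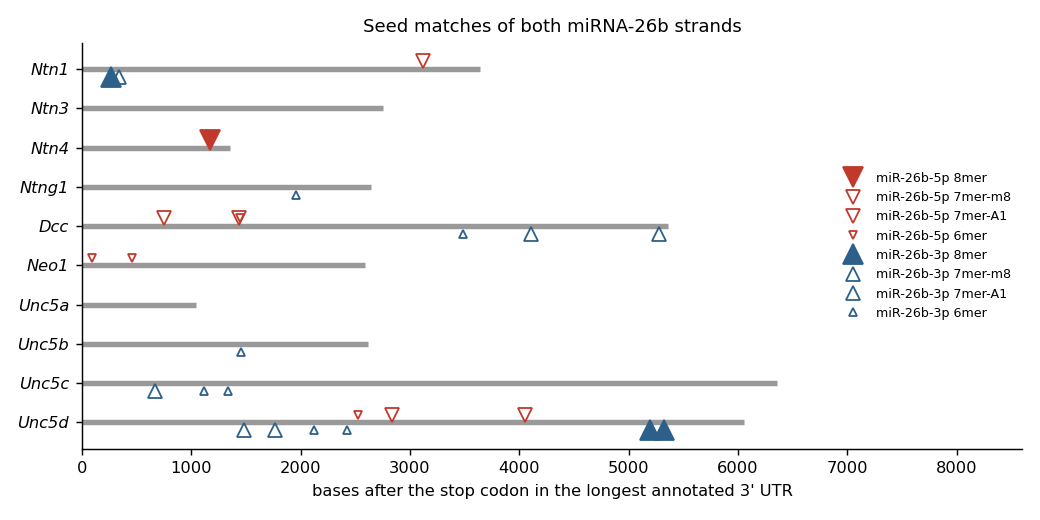
Seed matches of miR-26b-5p (red, above each bar) and miR-26b-3p (blue, below) in the longest annotated 3′ UTR of the 10 genes, with the distance from the stop codon in bases on the horizontal axis. Filled triangles are 8mers, large open triangles 7mers and small open triangles 6mers; *Unc5d* has 2 8mers for the 3p strand close to the end of its 6051 bases, and *Ntn4* has the 8mer for the 5p strand.

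The libraries held 25706728 to 33345037 counts assigned to genes, and levels are given as counts-per-million (CPM) after scaling by the trimmed mean of M values (TMM). The *Mir26b* gene itself, of 85 bases, had 0 counts in all 3 miRNA-26b-/- libraries and in 2 of the 3 miRNA-26b+/+ libraries, and 20 counts in M2630, so libraries of this kind hardly check the genotype. The labels describe the samples as endothelial cells, whereas the methods describe whole arch and thoracic aorta. Summed over marker lists, vascular smooth muscle genes reached 31670 to 42620 CPM and endothelial genes 542 to 1824 CPM, with all 10 endothelial markers detected in every library. M2626 and M2627 had the lowest endothelial sums (542 and 558 CPM, against 1274 or more in the others). They also had the lowest macrophage sums (132.9 and 168.7 CPM, against 270.8 or more in the others). M2627 also stood apart by its sympathetic neuron markers (355 CPM, against 58.8 CPM in M2630 and at most 31.2 CPM in the others) and by skeletal muscle genes (85.9 CPM, against at most 27.6 CPM). The smooth muscle, fibroblast, adipocyte, heart muscle, macrophage, lymphocyte, erythroid and mesothelial lists had no gene past an unadjusted p of 0.05 in either direction, in the edgeR test described next, and none past an adjusted p of 0.05. Only 1 of 5 lymphocyte, 3 of 4 mesothelial and 6 of 7 heart muscle markers could be tested.

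Across all 16017 genes, edgeR's quasi-likelihood test called 1036 genes at an unadjusted p below 0.05, which is 6.47% (3.4% higher and 3.07% lower in miRNA-26b-/-), and 1 gene at an adjusted p below 0.05, or 0.00624%. The libraries of the genotypes did not overlap for 11.5% of the genes (5.65% higher, 5.88% lower). Of the 8 family members tested, 1 was called at the unadjusted threshold, *Unc5d*, and the same gene was the 1 member whose groups did not overlap. Since the family was chosen with this result known, nothing is read from that count. At the adjusted threshold, edgeR, DESeq2 and limma voom called 0 of the 8. Of the 8, 3 had a fold change above 0 and 5 below, where 51.4% of all genes lay above, and their median log2 fold change was -0.13, where that of all genes was 0.01.

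Per kilobase of exon (RPKM, computed from the CPM and the exon length in the table), the mean level over the 6 libraries was 92.9 for *Ntn1*, 33.6 for *Neo1*, 29.5 for *Ntn4*, 8.03 for *Unc5b*, 4.63 for *Unc5c*, 1.22 for *Ntn3*, 0.648 for *Unc5a*, 0.454 for *Unc5d* and 0.0771 for *Ntng1*, and *Dcc* had no count. Within this family, the aortas thus held mainly netrin-1 and netrin-4 RNA on the ligand side and neogenin on the receptor side. This order leaves out co-receptors from outside the family. Of those listed for the netrin pathway, *Mcam* had a mean of 339 RPKM, above *Neo1*. *Boc* was at 20.2 RPKM and *Cdon* at 10.5 RPKM, both above every UNC5 receptor, and the rest were at 0.768 RPKM (*Adora2b*) or less. *Ntn1* was above *Neo1* in 6 of 6 libraries, *Ntn4* above *Unc5b* in 6, *Unc5c* above *Ntn3* in 6 and *Unc5d* above *Ntng1* in 6. The order of the other neighbours varied among libraries: *Neo1* was above *Ntn4* and *Unc5b* above *Unc5c* in 5 of 6, *Unc5a* above *Unc5d* in 4, *Ntn3* above *Unc5a* in 3 and *Ntng1* above *Dcc* in 2. The ranges of these neighbours over the 6 libraries overlapped. For *Unc5a* and *Unc5d* the order of the means turned with genotype, at 0.490 and 0.799 RPKM in miRNA-26b-/- and at 0.805 and 0.109 RPKM in miRNA-26b+/+.

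**Figure D2:**
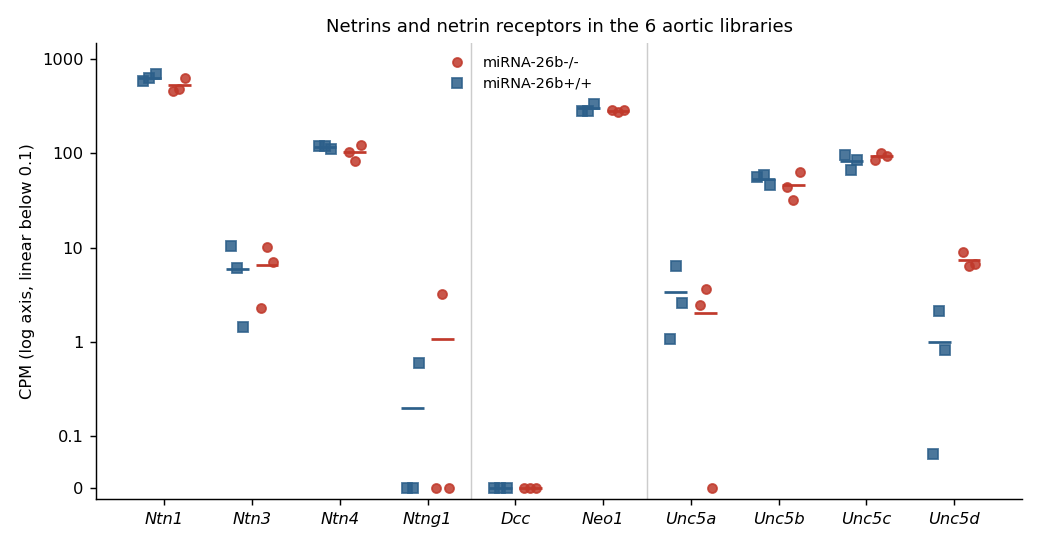
CPM of the 10 genes in each library, on a log axis that is linear below 0.1, with miRNA-26b-/- as red circles, miRNA-26b+/+ as blue squares and group means as short bars. Only *Unc5d* has its 3 miRNA-26b-/- libraries (6.44 to 9.03 CPM) above all miRNA-26b+/+ libraries (0.0653 to 2.11 CPM), and *Dcc* is at 0 in all 6.

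Among the ligands, *Ntn1* (chr11:68209364-68400823, minus strand, GRCm38 as for all genes here) encodes the secreted netrin-1. Its 3 miRNA-26b-/- libraries held 465, 489 and 630.1 CPM (M2626, M2627 and M2628) and its miRNA-26b+/+ libraries 586, 626.5 and 704 CPM (M2629, M2630 and M2631). M2626 and M2627 were the lowest of the 6, while M2628 lay within the miRNA-26b+/+ range, so the groups overlapped. The miRNA-26b-/- mean was 528 ± 89.4 CPM and the miRNA-26b+/+ mean 639 ± 59.8 CPM (SD, n = 3 each), with a fitted difference of -0.27 ± 0.15 on the log2 scale (log2 fold change and its standard error, SE). In bulk tissue, fewer cells of a type and less RNA per cell cannot be told apart for this or any other gene described here. Leaving out M2628 moved the log2 fold change of *Ntn1* to -0.42. The number of members called then rose from 1 to 3 (*Ntn1*, *Unc5b* and *Unc5d*). Calls among all genes rose too, from 1036 of 16017 to 1692 of 15654, so nothing is read from the member count. With limma voom, 2 members were called (*Ntn1* and *Unc5d*), and 847 of all 16017 genes.

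*Ntn4* (chr10:93640681-93747207, plus strand) encodes netrin-4, a basement membrane protein that binds laminin. It was at 103.4, 82.9 and 124.0 CPM in miRNA-26b-/- and at 121.0, 120.5 and 110.5 CPM in miRNA-26b+/+, so the highest and the lowest library were both miRNA-26b-/-. The means were 103.4 ± 20.5 and 117 ± 5.93 CPM (SD, n = 3 each) and the log2 fold change -0.19 ± 0.17 (SE). The groups overlapped. *Ntn4* holds the 8mer shown above, the longest match to the miR-26b-5p seed in the family, and the part of that site in the *Ntn4* values was not tested.

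*Ntn3* (chr17:24203848-24209531, minus strand), a close relative of netrin-1, was low and scattered, at 2.31, 10.1 and 7.06 CPM in miRNA-26b-/- and 10.4, 6.12 and 1.46 CPM in miRNA-26b+/+. Its coefficient of variation (CV) was 60.7% and 74.8%, where counting alone gives 7.08% and 7.51%, so the scatter was more than that of counting reads. The log2 fold change was 0.17 ± 0.62 (SE), with its sign reversed without M2627 or without M2631. About 4.46% of its exon bases are shared with the antisense gene *BC028777* and with *Tbc1d24*, and reads there count for each gene, as the counting did not use strand.

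*Ntng1* (chr3:109780040-110144011, minus strand) encodes netrin-G1, a membrane-anchored netrin that binds the protein of *Lrrc4c* and not DCC or UNC5 receptors. It had 0 counts in M2626, M2628, M2629 and M2630, 108 counts in M2627 and 18 in M2631, and did not pass the filter. The library with most *Ntng1* was M2627, the one that stood apart by sympathetic neuron markers, whose part in this was not tested.

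Summed per length, the 4 ligand genes reached 113 ± 18.8 RPKM in miRNA-26b-/- and 134 ± 7.21 RPKM in miRNA-26b+/+ (SD, n = 3 each). *Ntn1* made up 74.3 ± 1.79% of the sum in miRNA-26b-/- and 75.7 ± 3.002% in miRNA-26b+/+, and *Ntn4* 24.4 ± 2.73% and 23.4 ± 2.35%. The share of the ligands taken by each gene thus differed by less than the spread between libraries.

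Among the receptors that mediate attraction, *Neo1* (chr9:58874687-59036441, minus strand) encodes neogenin, which also binds repulsive guidance molecules. It was at 290.1, 273 and 291 CPM in miRNA-26b-/- and 282, 284 and 338 CPM in miRNA-26b+/+. Its CV of 3.64% was the lowest of the members in miRNA-26b-/-. In miRNA-26b+/+ its CV was 10.65%, above those of *Ntn4* (5.05%) and *Ntn1* (9.36%). The groups overlapped and only M2631 lay apart. The means were 285 ± 10.35 and 301 ± 32.1 CPM (SD, n = 3 each) and the log2 fold change -0.08 ± 0.14 (SE). *Dcc*, the receptor of commissural axons, had 0 counts in all 6 libraries, which allows up to 0.0894 to 0.117 CPM per library if 3 counts are taken as the limit. That limit covers counting error only, since the reads carried no molecular identifiers and 1 molecule can give several of them. Neogenin was therefore the whole of the detected DCC family. The ratio of *Ntn1* to *Neo1* per length was 2.57 ± 0.40 in miRNA-26b-/- (2.22 to 3.003) and 2.95 ± 0.10 in miRNA-26b+/+ (2.89 to 3.07).

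The UNC5 receptors mediate repulsion. *Unc5d* encodes a receptor best known from the developing cortex, which binds FLRT proteins besides netrins. It was at 9.03, 6.44 and 6.63 CPM in M2626, M2627 and M2628 (231, 216 and 187 counts) and at 0.0653, 2.11 and 0.827 CPM in M2629, M2630 and M2631 (2, 58 and 25 counts). All 3 miRNA-26b-/- libraries were above all 3 miRNA-26b+/+ libraries. The mean of the miRNA-26b-/- mice, 7.37 ± 1.44 CPM, was 7.35 times that of the miRNA-26b+/+ mice, 1.002 ± 1.04 CPM (SD, n = 3 each), and the fitted log2 fold change was 2.91 ± 0.75 (SE). The miRNA-26b+/+ values were the uneven ones, with a CV of 103% against 19.6%, where counting gives 18.8% and 6.88%. Without M2629, which had 2 counts, the log2 fold change was 2.33, and without M2630, which had the most of its group, it was 4.03, so its size depended on these libraries. *Unc5d* passed the low-count filter through the miRNA-26b-/- libraries, since only M2630 exceeded 1 CPM in miRNA-26b+/+. With 3 libraries against 3, an exact two-sided permutation test cannot give a p below 0.1 for any gene. *Unc5d* lies at chr8:28646717-29219636 on the minus strand (GRCm38) and shares no exon base with another gene.

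*Unc5b* (chr10:60762593-60831581, minus strand), the UNC5 receptor of endothelial cells, was at 43.9, 32.3 and 63.7 CPM in miRNA-26b-/- and 56.4, 59.5 and 45.7 CPM in miRNA-26b+/+. Its highest value and its lowest values were in miRNA-26b-/- libraries, so the groups overlapped. The means were 46.6 ± 15.9 and 53.9 ± 7.24 CPM (SD, n = 3 each) and the log2 fold change -0.22 ± 0.24 (SE). Leaving out M2628 gave -0.52, and leaving out M2627 gave 0.00.

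*Unc5c* (chr3:141465216-141834924, plus strand), known from cerebellar development, was at 85.5, 101 and 94.0 CPM in miRNA-26b-/- and 97.5, 67.4 and 85.6 CPM in miRNA-26b+/+. M2630 was the lowest library and the other 5 lay close together. The means were 93.5 ± 7.84 and 83.5 ± 15.15 CPM (SD, n = 3 each) and the log2 fold change 0.16 ± 0.18 (SE).

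*Unc5a* (chr13:54949411-55006018, plus strand), a receptor mainly of neurons, was low, at 2.46, 3.67 and 0 CPM in miRNA-26b-/- (63, 123 and 0 counts) and 1.08, 6.38 and 2.61 CPM in miRNA-26b+/+ (33, 175 and 79 counts). M2630 and M2627 were the highest, 1 of each genotype. The log2 fold change was -0.62 ± 0.88 (SE) and ranged from -1.47 to 0.21 as 1 library at a time was left out. *Unc5a* shares 34 exon bases with *Hk3*.

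Per length, the UNC5 receptors summed to 13.6 ± 1.96 RPKM in miRNA-26b-/- and 13.9 ± 1.22 RPKM in miRNA-26b+/+ (SD, n = 3 each), and the ranges, 12.03 to 15.8 and 12.5 to 14.8 RPKM, overlapped. *Unc5b* made up 42.9 to 64.4% of the sum in miRNA-26b-/- and 58.5 to 64.3% in miRNA-26b+/+, and *Unc5c* 31.1 to 43.9% and 23.8 to 35.8%. *Unc5d* made up 7.51, 5.81 and 4.55% in miRNA-26b-/-, against 0.0493, 1.55 and 0.718% in miRNA-26b+/+. It was thus a small part of UNC5 RNA in either genotype, below *Unc5b* and *Unc5c* in every library. *Unc5b* exceeded *Unc5c* 1.54 ± 0.55 times in miRNA-26b-/- and 2.03 ± 0.58 times in miRNA-26b+/+.

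**Figure D3:**
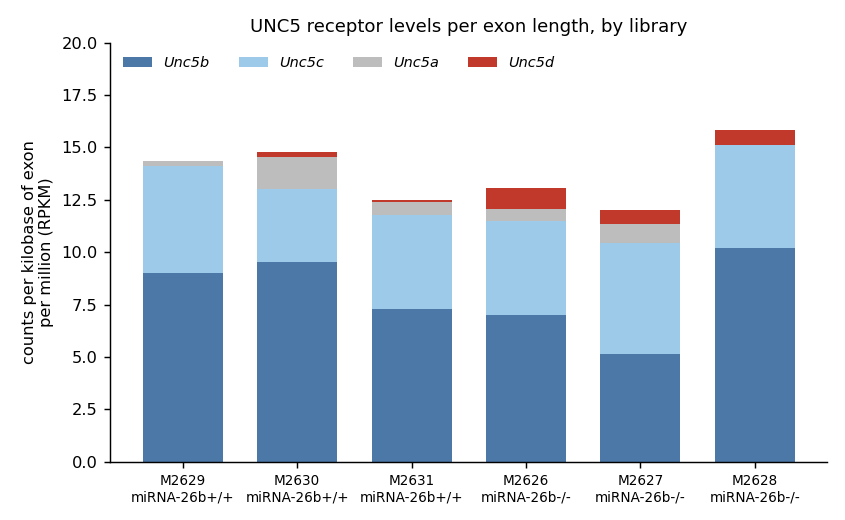
Stacked levels of the 4 UNC5 receptors in RPKM for each library, grouped by genotype. *Unc5b* and *Unc5c* fill most of each bar, the sum lies between 12.03 and 15.8 RPKM, and *Unc5d* is visible mainly in the 3 miRNA-26b-/- bars.

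Markers of other cells moved along with some members. The Schwann cell list, glia of peripheral nerves, summed to 266, 234.5 and 144.5 CPM in M2626, M2627 and M2628 and to 27.9, 65.0 and 86.5 CPM in M2629, M2630 and M2631. Its groups, like those of *Unc5d*, did not overlap, and M2626 was highest and M2629 lowest for both. The other libraries differed in order within each genotype. M2627 was above M2628 for the list but below it for *Unc5d*, and M2631 was above M2630 for the list but below it for *Unc5d*. All 9 Schwann markers were higher in miRNA-26b-/-, with a median log2 fold change of 1.54. Past an unadjusted p of 0.05 were 6 of 9, where 3.4% of all genes were (0 at the adjusted threshold, edgeR). The marker lists were chosen with earlier results of these data known, so nothing is read from that count. *Foxd3* was at 0 in M2630, and no other marker of the list was at 0 in any library. The part of the Schwann markers in the *Unc5d* values was not tested.

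The sympathetic neuron list summed to 18.7, 355 and 26.2 CPM in miRNA-26b-/- and 20.3, 58.8 and 31.2 CPM in miRNA-26b+/+. Of its 10 genes, 7 could be tested, all 7 with a fold change above 0. Past an unadjusted p of 0.05 were 3, all higher, where 3.4% of all genes were (edgeR). *Th*, *Dbh*, *Chrna3* and *Elavl4* were at 0 in M2626, M2628, M2629 and M2631. M2626 and M2628 had *Unc5d* at 9.03 and 6.63 CPM with those 4 neuron genes at 0. In each of them 5 of the 10 listed genes exceeded 3 counts, against 4 in M2629 and in M2631. *Snap25* was at 0 in M2629 and M2631 only. The part of neurons in the *Unc5d* values was not tested. M2627 and M2630, the libraries with *Th*, were also the highest for *Unc5a*, and the part of neurons in *Unc5a* was not tested. Without M2627 and M2630 together, an alternative added after the data were seen, the log2 fold change of *Unc5d* was 4.12. It was already 4.03 without M2630 alone, the miRNA-26b+/+ library with most *Unc5d*. Nothing about neurons is therefore read from the value of 4.12. The skeletal muscle list summed to 8.40 to 85.9 CPM in miRNA-26b-/- and 2.18 to 11.2 CPM in miRNA-26b+/+. Past an unadjusted p of 0.05 were 5 of 6 genes, all higher, where 3.4% of all genes were (edgeR). These genes were near the floor, with 2 of 6 above 3 counts in each miRNA-26b+/+ library. *Myh1* and *Myh4* were at 0 in every miRNA-26b+/+ library and in M2628. As for the Schwann list, nothing is read from these counts of genes called.

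The endothelial list summed to 542, 558 and 1824 CPM in miRNA-26b-/- and 1274, 1738 and 1553 CPM in miRNA-26b+/+, with 1 of 10 genes above 0 in log2 fold change. Past an unadjusted p of 0.05 was 1 of 10, lower, where 3.07% of all genes were (edgeR). M2626 and M2627 were lowest for the endothelial list, for *Unc5b* and for *Ntn4*, and M2628 was highest for all of them. This was not particular to the endothelial list. The macrophage list was also lowest in M2626 and M2627 (132.9 and 168.7 CPM) and highest in M2628 (474.9 CPM). The fibroblast list was highest in M2628 as well (14490 CPM). From the highest to the lowest library, *Unc5b* and *Ntn4* took the same order apart from M2629 and M2630. The part of the endothelial, macrophage or fibroblast markers in the *Unc5b* and *Ntn4* values was not tested.

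**Figure D4:**
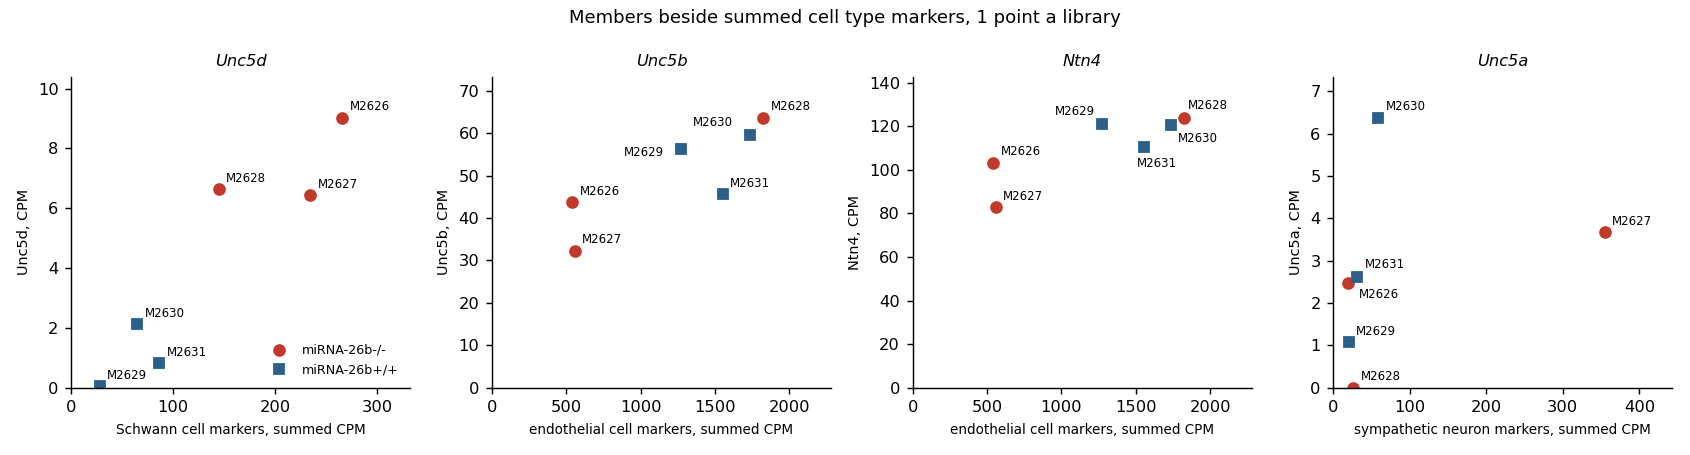
Each library as a point, with the summed CPM of a marker list on the horizontal axis and the CPM of a family member on the vertical axis, miRNA-26b-/- as red circles and miRNA-26b+/+ as blue squares. From left to right are *Unc5d* with Schwann cell markers (144.5 to 266 CPM in miRNA-26b-/-, 27.9 to 86.5 CPM in miRNA-26b+/+), *Unc5b* and *Ntn4* with endothelial markers, where M2626 and M2627 sit apart at 542 and 558 CPM, and *Unc5a* with sympathetic neuron markers, where M2627 sits apart at 355 CPM.

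**Figure D5:**
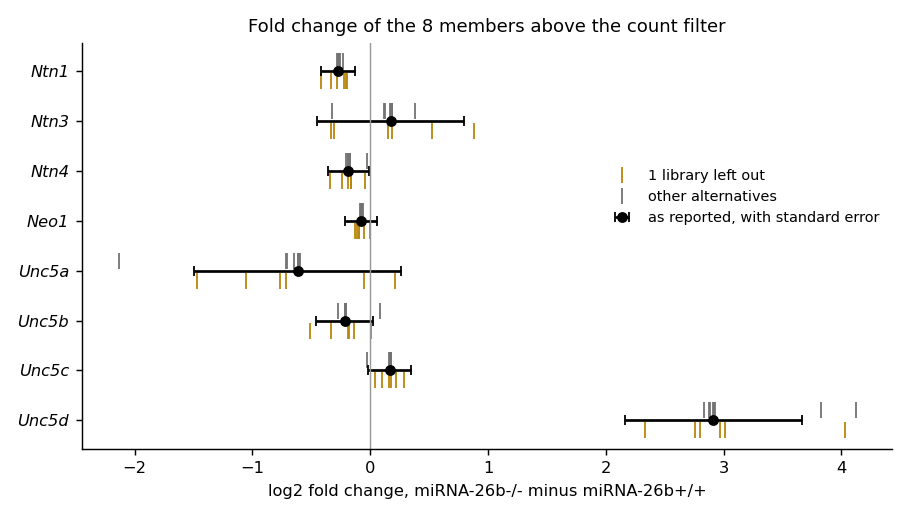
Log2 fold change of the 8 members above the count filter, miRNA-26b-/- minus miRNA-26b+/+, with the standard error as a bar and the values under each alternative as ticks (left-out libraries in gold, other settings in grey). *Unc5d* stays between 2.33 and 4.12, and *Ntn3*, *Neo1*, *Unc5a*, *Unc5b* and *Unc5c* have ticks on both sides of 0.

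Other genes of the netrin pathway were taken from 3 lists, of ligands and partners outside the cell, of co-receptors, and of proteins inside the cell or that cleave the receptors. Of 55 symbols listed, 54 were in the table. Of these, 45 were tested, 24 with a fold change above 0 and 21 below, with a median log2 fold change of 0.02. At an unadjusted p below 0.05, 4 were called, 1 higher and 3 lower, or 8.89% where 6.47% of all genes were, and edgeR, DESeq2 and limma voom called 0 at the adjusted threshold. By list, 0 of 8 ligands and partners, 1 of 5 co-receptors and 3 of 32 genes inside the cell were called.

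*Trio*, a guanine nucleotide exchange factor that acts below DCC, was at 122, 136 and 131 CPM in miRNA-26b-/- and 157, 181 and 196 CPM in miRNA-26b+/+. Its groups did not overlap, with a log2 fold change of -0.46 ± 0.15 (SE) and an adjusted p of 0.736 (edgeR). *Dock1*, which activates Rac below the same receptors, was at 67.37, 60.6 and 55.4 CPM in miRNA-26b-/- and 67.46, 89.6 and 87.5 CPM in miRNA-26b+/+, so that M2626 and M2629 were nearly tied at the border of the groups (log2 fold change -0.42 ± 0.18, SE, edgeR adjusted p = 0.748). *Mcam*, which encodes CD146, an adhesion molecule of vessels, overlapped between the groups at 1019 ± 119 and 1252 ± 159 CPM (-0.30 ± 0.14, SE, edgeR adjusted p = 0.763). *Trio* was past the unadjusted threshold under each alternative run, and *Dock1* and *Mcam* under some. *Tubb3*, a tubulin of neurons, had 14, 1676 and 44 counts in miRNA-26b-/- and 0, 245 and 0 in miRNA-26b+/+ (edgeR adjusted p = 0.745). It was highest in M2627 and M2630, the libraries with *Th*, and the part of neuron markers was not tested. It was not called without M2627, M2629 or M2631, nor without M2627 and M2630 together, with DESeq2, with limma voom, with edgeR's earlier quasi-likelihood method or without the filter.

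Other ligands of these receptors overlapped between the groups. The repulsive guidance molecules, which bind neogenin, were at 50.8 ± 19.7 and 46.2 ± 9.62 CPM for *Rgma* and at 60.4 ± 1.82 and 60.2 ± 5.34 CPM for *Rgmb*, in miRNA-26b-/- and miRNA-26b+/+ (SD, n = 3 each). Of the FLRT proteins, which bind UNC5 receptors, *Flrt2* was the most abundant, at 30.0 ± 10.6 and 27.3 ± 2.29 CPM, followed by *Flrt1* at 6.36 ± 3.59 and 5.21 ± 0.57 CPM. *Flrt3* had 105, 105 and 0 counts in miRNA-26b-/- and 28, 1 and 45 in miRNA-26b+/+, so its groups overlapped (log2 fold change 1.52 ± 1.09, SE). It was past the unadjusted threshold in the fit without M2628, where it was at 0. *Ntn5*, *Cbln4*, *Dscam*, *Robo3* and *Unc5cl* had no count in any library.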

How the data were processed

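RNA of the aortic arch and thoracic aorta was sequenced from 3 mice per genotype, after TruSeq library preparation. The authors aligned reads with STAR to GRCm38 (mm10) and deposited raw counts per gene from featureCounts 1.6.4, grouped by gene name, without strand, a read that overlaps several genes counting once in every one. The header names GENCODE M21 and the methods M23, and M21 was used here. A second deposited table, with filtered counts, log2 CPM and the authors' own comparison (fold changes and p-values), was not used.

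Genes summing to 2 counts or more, and above 1 CPM in 2 libraries or more, were tested with edgeR 4.0.16 (R 4.3.3, TMM, quasi-likelihood test, prior count 0.125, genotype as sole term, Benjamini-Hochberg adjustment), after a test on simulated data. SE was the fold change divided by the root of F. Alternatives used DESeq2 1.42.0, limma 3.58.1 and other filters and scalings. Groups came from the labels; as nothing states separate litters or batches, p-values measure the spread between these libraries. Depth limits genes under about 3 counts.

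Members, pathway lists and marker lists were chosen with earlier results of these data known. Named were all 10 members, pathway genes past an adjusted p of 0.05, the 3 per direction with the smallest unadjusted p below 0.05, *Rgma*, *Rgmb* and *Flrt1* to *Flrt3*, and for each member at a mean of 1 CPM or more the 3 genes (mean of 5 CPM or more) with the most alike log2(CPM + 0.5). Genes named beyond this rule (*Ntng2*, *Lrrc4*, *Lrrc4c*, genes at 0, markers and overlapping genes) were chosen after their values were seen. Single values of 1 marker gene are not reported here.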

Additional observations from a re-analysis of the deposited data

How the results depend on the processing

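The log2 fold change of *Unc5d* ranged from 2.33 to 4.03 over the left-out libraries and from 2.83 to 4.12 over the other settings. Its sign is fixed by its choice, as its groups do not overlap, and is no sign of stability. Leaving out 1 library at a time, the members called numbered 1 to 3, the pathway genes called 1 (without M2631) to 6 (without M2628), and all genes called 686 (without M2631) to 1692 (without M2628), against 1036. The number at an adjusted p below 0.05, 1 as reported, ranged from 0 (without M2626, M2630 or M2631) to 82 (without M2628). It was 57 with DESeq2, 3 with limma voom, and 0 with edgeR's earlier quasi-likelihood method or without M2627 and M2630 together, both added after seeing the data. Without those libraries 607 genes were called. With limma voom 2 members were called, *Unc5a* was at -2.14, and the split of all calls was 365 higher and 482 lower, against 544 and 492. It was also turned towards lower without M2627 (425 and 473), M2628 (788 and 904), M2629 (407 and 431), or M2627 and M2630 (290 and 317), and was 454 and 324 without M2630 and 349 and 337 without M2631. In the level order, 4 members changed rank without division by length (*Unc5b* with *Unc5c*, and *Unc5a* with *Unc5d*). When 1 library was left out, 0 to 2 changed rank (2 without M2630). The cause was not tested. The other settings left the number of all genes, members and pathway genes called within 1.5 times. No paired analysis was possible because the labels give no replicate numbers, and those used here only name the libraries and link none of them across genotypes.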

Other observations

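The netrin-G branch was represented mainly by *Ntng2*, the relative of *Ntng1*, which had 799, 770 and 898 counts in miRNA-26b-/- and 598, 632 and 515 in miRNA-26b+/+. Its means were 28.7 ± 4.96 and 19.9 ± 3.01 CPM (SD, n = 3 each), with M2627 and M2630 overlapping, and the log2 fold change was 0.52 ± 0.26 (SE, edgeR adjusted p = 0.769). Its partners were scarce. *Lrrc4c* had 0, 35 and 24 counts in miRNA-26b-/- and 61, 0 and 0 in miRNA-26b+/+, and *Lrrc4* had 16, 33 and 0 and then 16, 0 and 30.

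The genes most like each member over the 6 libraries, of 11681 searched by log2(CPM + 0.5), are a description, since so many genes compared over 6 libraries that share 1 preparation always hold close matches. For *Unc5d* they were *Sh3bp2* (Pearson's r 0.98, Spearman's rho 0.94), *Smarcb1* (0.98, 1) and *Nnt* (0.98, 0.77). For *Unc5b* and *Ntn4*, *Plppr3* was among the 3 nearest of both (r 0.99 each), beside *Camsap2* and *Wdr35* for *Unc5b* (r 0.996 and 0.994) and *Col19a1* and *Ptk2b* for *Ntn4* (r 0.993 and 0.993). For *Ntn1* they were *Gm48488*, *Dst* and *Tpr* (r 0.998, 0.997 and 0.996), for *Neo1* *Slc39a3*, *Gid8* and *Efhd2* (r 0.996, 0.994 and 0.987), and for *Unc5c* *Ppm1b*, *Yaf2* and *R3hcc1* (r 0.996, 0.987 and 0.986). For *Unc5a* they were *Myg1*, *Kcnd3* and *Acad11* (r 0.994, 0.989 and 0.984) and for *Ntn3* *Mccc1*, *Wipi2* and *Mto1* (r 0.982, 0.978 and 0.974).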
